A study of Drosophila melanogaster with 8 samples.

Results

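The peptidoglycan recognition protein (PGRP) genes of Drosophila melanogaster were examined in whole prepupae. Of 10 PGRP genes looked for by symbol, 6 had a probe set whose platform annotation gave that 1 gene, out of 11982 genes measured in this way. These were PGRP-LA, PGRP-LE, PGRP-LF, PGRP-LB, PGRP-SC2 and PGRP-SB1, each with 1 probe set. PGRP-LD was annotated only on a probe set shared with its neighbour Pmi and was not named from it. PGRP-SA, PGRP-SD and PGRP-LC were not analysed here. The arrays were Affymetrix expression arrays, each hybridised with the RNA of 1 white prepupa at 0 hours after puparium formation. The 8 arrays formed 4 groups of 2: females and males of the wild type strain w1118, and females and males mutated in both bap170 and bap180. The second of these genes is now named polybromo, and the alleles are not given in the labels. Both encode subunits found in PBAP and not in BAP, the other form of the Brahma chromatin remodelling complex, and the main question was which transcripts depend on them at the start of metamorphosis.

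Peptidoglycan is a polymer of the bacterial cell wall, and PGRPs are the proteins with which insects detect or degrade it. In Drosophila, meso-diaminopimelic acid peptidoglycan, typical of Gram-negative bacteria, is sensed by PGRP-LC at the cell surface and by PGRP-LE inside cells. Both act through the Imd pathway and the NF-kappaB factor Relish (Rel), whose targets include genes of antimicrobial peptides. Lysine-type peptidoglycan is sensed by secreted PGRP-SA, with PGRP-SD, upstream of the Toll receptor. Other members are amidases, which cut peptidoglycan, and those of the gut and fat body lower the amount that reaches the Imd receptors.

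As a check of the labels, Bap170 read 5.69 to 6.09 (log2 intensity) on the mutant arrays and 6.88 to 7.35 on the wild type arrays, and polybromo read 3.96 to 4.27 and 5.09 to 6.30. Array medians lay between 27.8 and 29.2 intensity units in females and between 33.2 and 35.0 in males. Replicate 2 of the double mutant males stood apart on the first principal component (60.6% of the variance), at 26.7 against 53.4 to 59.6 for the other males. Fbp1, a gene of the larval fat body, lay between 14.07 and 14.34 on all 8 arrays, so RNA of the fat body was present. This cannot tell a whole prepupa, the labelled material, from a part that holds fat body.

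None of the 6 PGRP genes passed the test for genotype, in limma with Benjamini-Hochberg adjustment over 18769 probe sets at 0.05. Over all tested probe sets 2.79% were called (524), so a count of 0 of 6 does not set these genes apart. PGRP-LA, PGRP-LB and PGRP-SC2, 3 of the 6, had an unadjusted p under 0.05, against 13.3% of all tested probe sets. The differences, double mutant minus wild type, ran from -0.70 for PGRP-LA to 0.79 for PGRP-LB, with a median of 0.14 beside -0.01 over all tested probe sets. All 4 mutant arrays stood above all 4 wild type arrays for PGRP-LB (as for 3.36% of all tested probe sets) and below them for PGRP-LA (as for 2.98%).

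**Figure D1:**
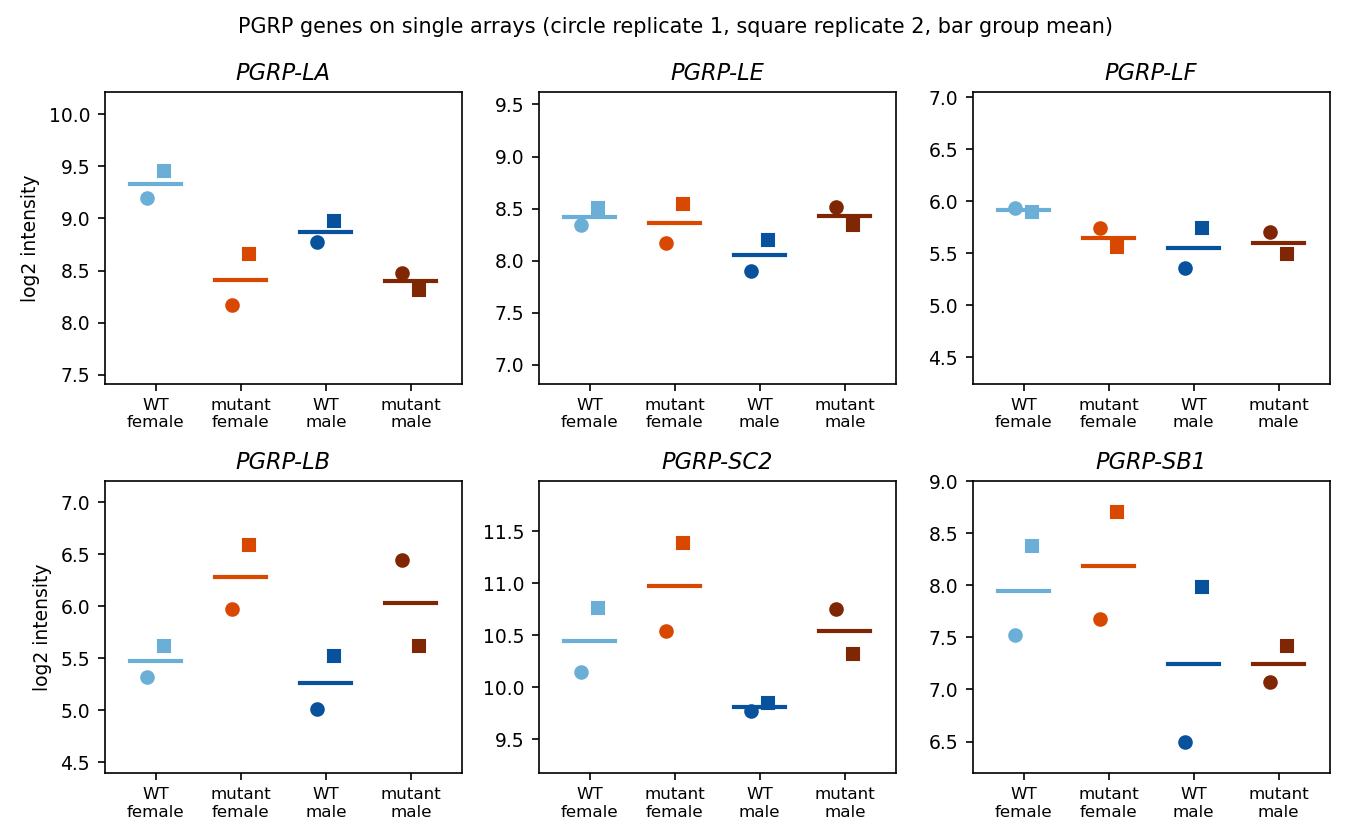
Log2 intensity of the 6 PGRP genes on each of the 8 arrays, by genotype and sex, with circles for replicate 1, squares for replicate 2 and bars for group means. Every panel spans the same number of log2 units from its own start. PGRP-LA is lower on all 4 mutant arrays than on any wild type array, PGRP-LB is higher on all 4, and the replicates of PGRP-SB1 lie far apart.

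Among the measured PGRP genes, PGRP-LA had the lowest p for genotype. It encodes a PGRP that is not an amidase and has been linked to Imd signalling in barrier tissues such as the trachea. Its probe set (1625486_a_at) read 9.20 and 9.46 (log2 intensity) in wild type females and 8.77 and 8.98 in wild type males. It read 8.17 and 8.66 in double mutant females and 8.48 and 8.31 in double mutant males. The lowest wild type array, a male, stood above the highest mutant array, a female, so the genotypes did not overlap within either sex.

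The genotype difference of PGRP-LA was -0.70 ± 0.14 (log2, SE, n = 4 per genotype, 95% interval -1.03 to -0.37), which is 1.62-fold lower in mutants, and it missed the threshold (limma adjusted p = 0.055). In females it was -0.92 ± 0.20 (n = 2 per genotype, adjusted p = 0.129). The males gave -0.48 ± 0.20 (adjusted p = 0.375). The call turned on the setting. PGRP-LA passed after repeated quantile normalization (adjusted p = 0.0162) and with probe sets whose highest group mean was under 6 left out (0.0478). It also passed with a robust variance trend (0.0374) and with 1 probe set per gene (0.04996), and in none of the other 13 alternatives.

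PGRP-LE encodes the receptor that recognises peptidoglycan fragments in the cytosol. Its probe set (1638119_at) read 8.34 and 8.51 in wild type females, 8.17 and 8.54 in mutant females, 7.90 and 8.20 in wild type males and 8.52 and 8.34 in mutant males. Female groups overlapped, whereas both mutant males stood above both wild type males. The difference was -0.07 ± 0.18 (log2, SE, n = 2, limma adjusted p = 0.968) in females and 0.38 ± 0.18 (adjusted p = 0.443) in males. Over both sexes it was 0.16 (95% interval -0.15 to 0.46, adjusted p = 0.768).

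PGRP-LF encodes a membrane protein with no signalling part inside the cell, which binds PGRP-LC and holds Imd signalling down. In the Release 6 assembly the genes PGRP-LA, PGRP-LC and PGRP-LF follow each other. The probe set of PGRP-LF (1633145_at) read 5.94 and 5.90 in wild type females, 5.74 and 5.56 in mutant females, 5.36 and 5.74 in wild type males and 5.71 and 5.49 in mutant males. These 8 values spanned 0.58 log2 units, the narrowest range of the 6 genes. Both mutant females stood below both wild type females (-0.27 ± 0.17, limma adjusted p = 0.777), and the genotypes overlapped in males (0.05 ± 0.17). The genotype difference was -0.11 ± 0.12 (log2, SE, 95% interval -0.40 to 0.18, limma adjusted p = 0.859).

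The amidase genes were read by 3 probe sets. PGRP-LB, whose product degrades diaminopimelic acid peptidoglycan and so limits Imd activation, read 5.32 and 5.62 in wild type females and 5.97 and 6.59 in mutant females (probe set 1630741_s_at). It read 5.01 and 5.52 in wild type males and 6.44 and 5.62 in mutant males. Replicate 2 of the mutant males, at 49.2 intensity units, lay barely above the highest wild type array, a female at 49.0, and the other mutant arrays lay further up.

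The genotype difference of PGRP-LB was 0.79 ± 0.24 (log2, SE, n = 4 per genotype, 95% interval 0.23 to 1.36), or 1.73-fold, and did not pass (limma adjusted p = 0.185). It was 0.82 ± 0.34 in females (adjusted p = 0.543) and 0.77 ± 0.34 in males (adjusted p = 0.399). With 1 mutant array of the sex left out, the female value was 0.50 (without replicate 2) or 1.13 (without replicate 1), and the male value 0.36 (without replicate 1) or 1.18 (without replicate 2). The genotype by sex interaction was 0.05 (95% interval -1.08 to 1.18). On an average array 57.7% of probe sets read as low as this one or lower, and 57.3% as low as that of PGRP-LF. The share of background in these signals was not measured. With 1 array left out the difference ranged from 0.59 to 1.00, and without either array of the mutant males it took those extremes (0.59 without replicate 1, 1.00 without replicate 2).

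PGRP-SC2 encodes a secreted amidase of the gut. Its probe set (1629118_at) read 10.15 and 10.76 in wild type females, 10.54 and 11.39 in mutant females, 9.77 and 9.85 in wild type males and 10.75 and 10.32 in mutant males. Males of the genotypes did not overlap, and females did. The genotype difference was 0.62 ± 0.23 (log2, SE, 95% interval 0.08 to 1.16, limma adjusted p = 0.298), made up of 0.51 ± 0.33 for females and 0.73 ± 0.33 for males. Without replicate 2 of the mutant females, the highest array, it was 0.41, and the female difference was then 0.09, against 0.94 without replicate 1. PGRP-SC2 lies next to PGRP-SC1b in the Release 6 assembly. PGRP-SC1a and PGRP-SC1b share a probe set, which was not named.

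PGRP-SB1, which encodes an amidase induced on infection, varied most between animals of 1 group. Its probe set (1636490_at) read 7.52 and 8.38 in wild type females, 7.68 and 8.70 in mutant females, 6.50 and 7.98 in wild type males and 7.07 and 7.42 in mutant males. Replicate 2 read higher than replicate 1 in every group, but the labels name no shared batch and the numbers were not taken as a pairing. On the linear scale wild type males differed from each other as 90.8 and 253 intensity units. The pooled SD within groups was 0.72 log2 units, higher than in 98.3% of tested probe sets or equal to it, against 0.17 for PGRP-LF and 0.19 for PGRP-LE. The genotype difference was 0.12 ± 0.39 (SE, 95% interval -0.80 to 1.04, limma adjusted p = 0.973), an interval wide enough for a change of 1.5-fold or more either way. With the replicate number added to the model, PGRP-SB1 differed by 0.12 ± 0.19. Its neighbour PGRP-SB2, another PGRP gene, differed by 0.11 ± 0.36 (adjusted p = 0.973). Both had their lowest array in replicate 1 of the wild type males (6.50 and 11.32) and their highest in replicate 2 of the mutant females (8.70 and 13.05).

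The extremes of several members fell on the same animals. Replicate 1 of the wild type males held the lowest value of 5 of the 6 PGRP genes, all but PGRP-LA, where 23.1% of all tested probe sets had their lowest value on that array. This array also had the highest 3' minus 5' difference of the control transcript Act5C, a sign of RNA quality, at 0.79 log2 units against 0.23 to 0.67 on the others, and its part in these low values was not tested. Replicate 2 of the double mutant females held the highest value of 4 of the 6, PGRP-SB1, PGRP-SC2, PGRP-LB and PGRP-LE, against 13.5% of all tested probe sets. Without replicate 1 of the wild type males the genotype difference in males stood at -0.74 for PGRP-SB1, and without replicate 2 at 0.74, compared with 0.00 on all arrays. With 2 arrays in the group these shifts must be equal in size, so they do not single out either array. The members share these arrays, so their values are not independent of each other. In whole animals, fewer cells of a type and less RNA per cell cannot be told apart.

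**Figure D2:**
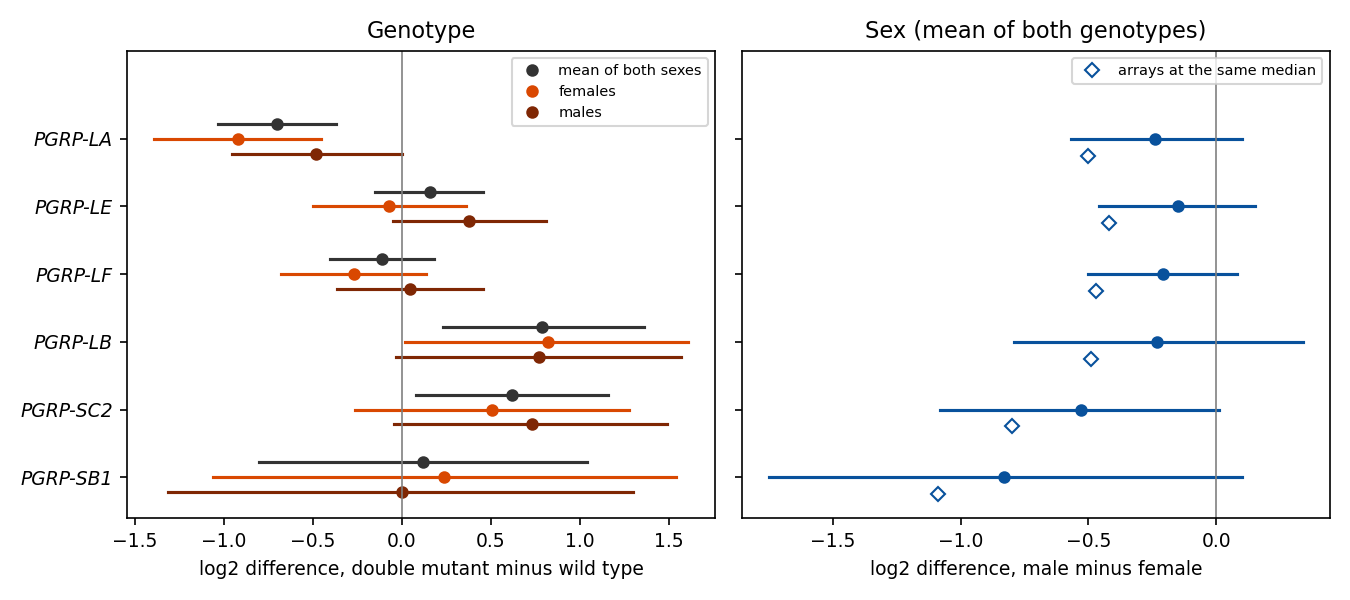
Log2 differences of the 6 PGRP genes with 95% intervals from limma. On the left is double mutant minus wild type over both sexes, in females and in males; on the right is male minus female, with open diamonds for the same difference after each array was set to the same median. The interval over both sexes excludes 0 for PGRP-LA, PGRP-LB and PGRP-SC2 before adjustment for multiple testing. All 6 sex differences lie below 0, as do those of about 75% of all tested probe sets.

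Genotype and sex were combined in the interaction, female minus male genotype difference. No PGRP gene was called for it (limma lowest adjusted p = 0.766), none reached an unadjusted p under 0.05, and over all probe sets 0 were called (1184, or 6.31%, at an unadjusted p under 0.05). The estimates lay between -0.45 for PGRP-LE and 0.24 for PGRP-SB1. Within females alone 0 of 6 were called by limma, where 0.943% of probe sets were, and within males 0 of 6, where 1.05% were. The unadjusted p was under 0.05 for 2 of the 6 in females (8.94% of probe sets) and for 1 in males (13.1%). With 2 arrays against 2, the genotypes of females were apart for 1 gene higher in mutants (17% of probe sets) and 2 lower (22.4%), and those of males for 3 higher (20%) and 1 lower (19%).

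The comparison of the sexes depended on scaling. As deposited, about 75% of all tested probe sets averaged lower in males, so 6 of 6 does not set the PGRP genes apart. All 6 averaged lower in males, with differences from -0.15 for PGRP-LE to -0.83 for PGRP-SB1. Their median was -0.23, beside -0.13 over all tested probe sets. None passed (limma lowest adjusted p = 0.21, none at an unadjusted p under 0.05), where 10.1% of probe sets were called and 24.6% had an unadjusted p under 0.05. PGRP-SB1 averaged 7.95 in wild type females and 7.24 in wild type males, and 8.19 and 7.24 in the mutants. PGRP-SC2 averaged 10.45 and 9.81 in wild type and 10.97 and 10.54 in mutants, a sex difference of -0.53 ± 0.23 (log2, SE, adjusted p = 0.21). Female and male arrays overlapped for all 6 genes, and did not for 18.4% of probe sets.

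Setting each array to the same median shifted every sex difference by -0.27. It then called 5 of the 6 PGRP genes lower in males, all but PGRP-LB, but also 12522 of all 18769 probe sets. Repeated quantile normalization called PGRP-LF alone (-0.54 ± 0.11, limma adjusted p = 0.0156). Of all calls for sex, 80.1% were higher in males as deposited, 11.5% with equal medians and 45.6% after repeated quantile normalization. Equal medians lowered every sex difference by the same amount, so the sign of these 6 genes could not change there. After repeated quantile normalization their direction was the same as deposited, and their calls were not.

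The rest of the Imd pathway held 2 called genes. Of 14 measured genes of 16 listed, 2 rose in double mutants, 0 fell, and 12 did not pass (1.32% of probe sets were called higher), with a list median of 0.13 beside -0.01. Fadd, the adaptor that joins Imd to the caspase Dredd, read 6.38, 6.79, 5.78 and 6.57 on the wild type arrays and 7.58, 7.88, 7.50 and 7.38 on the mutant arrays. It rose 2.31-fold (1.21 ± 0.20, log2, SE, n = 4, limma adjusted p = 0.0267), with no overlap. Tab2, a partner of the kinase Tak1, rose 1.81-fold (0.86 ± 0.14, adjusted p = 0.024). Rel differed by 0.55 ± 0.14 (adjusted p = 0.124) and imd, the adaptor that gives the pathway its name, by 0.47 ± 0.17 (adjusted p = 0.291). Of the 14 genes 10 lay above 0 and 4 below. Among the latter was Dredd (-0.27 ± 0.11, adjusted p = 0.33), named after its value was seen. With 1 array left out the difference of Fadd stayed between 1.01 and 1.4 and that of Tab2 between 0.74 and 0.98. The call of Fadd ended without any 1 of the 4 female arrays or the 2 mutant males (adjusted p up to 0.109), and that of Tab2 without any 1 array other than replicate 1 of the mutant females (up to 0.101).

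The Toll pathway, which lies downstream of PGRP-SA, likewise held 2 rises and 0 falls among 15 measured of 18 listed genes (1.32% of probe sets were called higher), with a median of 0.18 beside -0.01 over all probe sets. GNBP3, a secreted receptor for fungal beta-glucan, rose 1.86-fold (0.90 ± 0.16, log2, SE, limma adjusted p = 0.0336), and the kinase gene Gprk2 rose 1.46-fold (0.55 ± 0.09, adjusted p = 0.0297). The protease gene grass (0.38 ± 0.10, adjusted p = 0.147) and the serpin gene nec (1.07 ± 0.35, adjusted p = 0.221) did not pass. Of the 15 genes 11 lay above 0 and 4 below, the lowest at -0.12. With 1 array left out, the difference of GNBP3 lay between 0.75 and 1.04 and that of Gprk2 between 0.49 and 0.60. Each kept its call in 1 of these 8 fits, with adjusted p up to 0.124 and 0.113. For sex, the kinase gene pll, which transmits the Toll signal, was called lower in males (-0.39 ± 0.09, adjusted p = 0.0345). Without any 1 array its call ended (adjusted p up to 0.127) at differences of -0.43 to -0.35. In the same list psh, a protease gene, differed by -0.62 ± 0.17 (adjusted p = 0.0715). In the Imd list Dredd (-0.21 ± 0.11) and Fadd (-0.35 ± 0.20) had the lowest p for sex and neither passed.

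Among target genes of both pathways, 6 antimicrobial peptide genes of 14 listed were measured and 0 were called for genotype by limma (2.79% of all probe sets were), with 1 at an unadjusted p under 0.05 (13.3%). That was Drs, the antifungal peptide gene drosomycin, which differed by 0.68 ± 0.21 (log2, SE, adjusted p = 0.193) with all 4 mutant arrays (13.03 to 13.73) above the wild type arrays (12.39 to 12.97), as for 3.36% of probe sets. DptB (0.20 ± 0.10), a diptericin gene regulated by the Imd pathway, lay between 4.33 and 4.88 on the 8 arrays, around the array medians of 4.80 to 5.13. AttD (0.30 ± 0.33) and Mtk (-0.45 ± 0.37) did not pass either. For sex, CecB (-0.66 ± 0.28) and Def (-0.45 ± 0.26) did not pass. With 1 array left out CecB lay between -0.96 and -0.35, and passed without replicate 2 of the mutant females (adjusted p = 0.03271), and Def lay between -0.70 and -0.20.

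**Figure D3:**
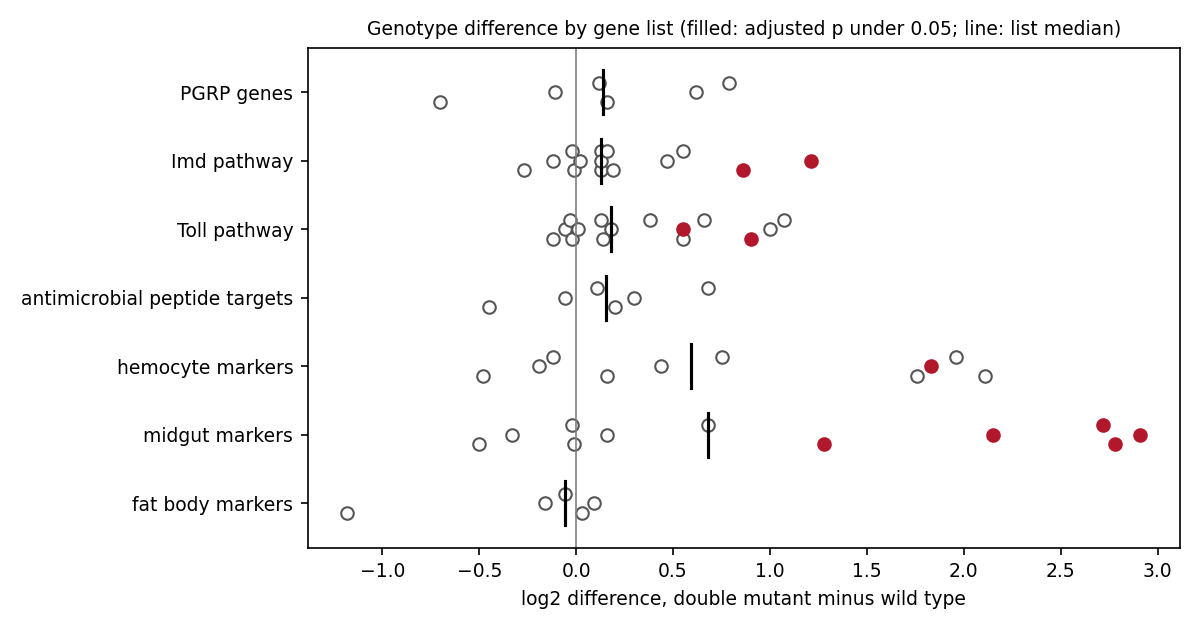
Genotype differences (log2, double mutant minus wild type) of the 6 PGRP genes and of the measured genes of 6 lists, 1 point per gene, filled where limma's adjusted p was under 0.05, with a line at each list's median. No PGRP gene is filled; 2 genes each of the Imd and Toll lists and 5 midgut markers are filled on the side of higher signal in mutants.

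Tissues in which PGRP genes are active were followed by marker genes. Of 11 measured midgut markers 5 rose and 0 fell (1.32% of probe sets were called higher), among them the lipase gene mag (2.72 ± 0.23, log2, SE, limma adjusted p = 0.00209) and the trypsin gene betaTry (2.78 ± 0.33, adjusted p = 0.00776). Below 0 lay 4 of the 11, among them Jon65Aiv (-0.33 ± 0.11, adjusted p = 0.227), lower on all 4 mutant arrays, and alphaTry (-0.50 ± 0.32, adjusted p = 0.652), both named after their values were seen. Without either mutant female array 3 midgut markers rose, and 4 or 5 without any other array. The mean log2 of the midgut list was 8.88 to 9.75 on mutant arrays and 8.04 to 8.62 on wild type arrays, without overlap. Of 10 hemocyte markers 1 rose and 0 fell (1.32% of probe sets were called higher), the phagocytosis receptor gene eater (1.83 ± 0.13, adjusted p = 0.000894). The gene srp differed by 0.75 ± 0.15 (adjusted p = 0.0531). The list mean was 7.93 to 8.38 in mutants and 6.93 to 7.77 in wild type. It includes He (2.11 ± 0.55), PPO1 (1.96 ± 0.52) and PPO2 (1.76 ± 0.42), named after their values were seen. None of them passed, and PPO1 and PPO2 overlapped between genotypes. Below 0 lay 3 of the 10, Hml (-0.48 ± 0.20, adjusted p = 0.35), NimC1 (-0.19 ± 0.72) and Pxn (-0.12 ± 0.34), named after their values were seen, and none of these passed. Rises in that list numbered 3 and 2 without replicates 1 and 2 of the wild type females, 2 without replicate 2 of the mutant males and 1 without any other array. Of 5 fat body markers 0 were called by limma (2.79% of all probe sets were), with 1 at an unadjusted p under 0.05 (13.3%). That was Lsd-1 (-1.18 ± 0.37, adjusted p = 0.205), beside Lsp2 (-0.16 ± 0.09). Lsd-1 passed without replicate 1 of the mutant males (-1.61). The list mean of the fat body markers was 12.95 to 13.36 in mutants and 13.23 to 13.55 in wild type. Within it Lsd-1 averaged 10.86 in mutants and 12.04 in wild type, whereas Fbp1, Fbp2, Lsp2 and apolpp differed by -0.16 to 0.09. Fbp1, Fbp2 and Lsp2 read as high as 99.8% of probe sets or higher on every array. Whether a change could still show at such signals was not tested. The dimmest markers were Mal-A1 in the midgut list (3.71 to 4.14) and Hml in the hemocyte list (4.16 to 5.49). The part of these tissues in the values of PGRP-LB, PGRP-SC2 and PGRP-LA was not tested.

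The genes whose profile over the 8 arrays came nearest to that of PGRP-LA were CG4210, MED11, which encodes a subunit of the Mediator complex, and Hacd2. Likeness was the Euclidean distance between log2 profiles centred on their means, over 11981 other genes. The distances were 0.27, 0.27 and 0.30, where the median over all genes was 1.31. Their genotype differences were -0.64 ± 0.15 for CG4210, -0.65 ± 0.15 for MED11 and -0.52 ± 0.12 for Hacd2 (log2, SE), with limma adjusted p = 0.0909, 0.0932 and 0.0806. These genes were picked for this likeness, so their differences are a description and support nothing about PGRP-LA.

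**Figure D4:**
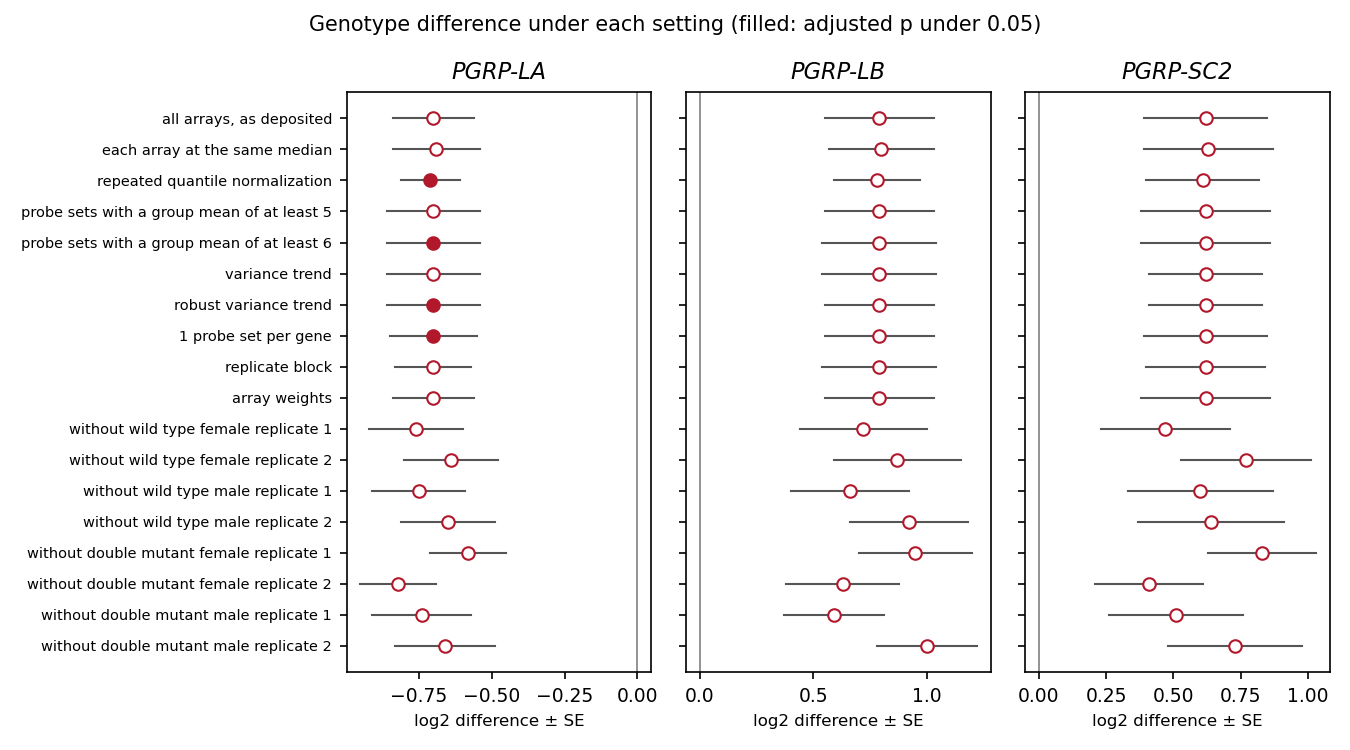
Genotype difference (log2, with SE) of PGRP-LA, PGRP-LB and PGRP-SC2 on all arrays as deposited and under each of 17 alternatives, with filled points where limma's adjusted p was under 0.05. PGRP-LA stays between -0.82 and -0.58 and is filled in 4 alternatives, and PGRP-LB (0.59 to 1.00) and PGRP-SC2 (0.41 to 0.83) are filled in none.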

How the data were processed

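Per the submitters' processing notes, RMA, a method of background correction, between-array normalization and summary over probes, gave the linear-scale intensities that the authors deposited. Its software, and whether values were scaled again, is not given in the sources used here. Of 18952 probe sets 183 controls were left out, and log2 values of 18769 were tested. The platform annotation gave 1 symbol for 13647 of these. For each gene the probe set of highest mean was used, and coordinates are not printed because no build is named.

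Differences were tested with limma (version 3.58.1, R 4.3.3; lmFit and eBayes on 4 group means, 4 residual degrees of freedom), with Benjamini-Hochberg adjustment over all probe sets. The genotype effect is the mean of both within-sex differences. On simulated data for the genotype effect over 18769 probe sets, the test recovered 8.96% of log2 changes sized 0.5, 86.6% of those sized 1 and 100% of those sized 2. The simulation used independent normal noise at limma's variance estimates, no sex difference and 200 changed probe sets. These rates do not hold for single PGRP genes: the within-group SD lay at percentile 98.3 for PGRP-SB1, 92 for PGRP-LB and 90.9 for PGRP-SC2. The number of arrays limits precision.

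The members, lists and tests were chosen with earlier results of these data known. Named were the members, the mutated genes, up to 4 genes per pathway list with the lowest p for genotype and 2 for sex, 2 per tissue list, and the 3 genes nearest in profile to the member with the lowest p. Alternatives covered scaling, dim probe sets, variance prior, 1 probe set per gene, a replicate block, array weights, a 2-fold threshold and each array left out.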

Additional observations from a re-analysis of the deposited data

How the results depend on the processing

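Of 1025 single gene values under alternatives, 928 kept their direction and their side of the threshold, 42 lost a call, 29 gained one and 26 changed sign. The count of PGRP genes called for genotype moved from 0 to 1 (PGRP-LA) with repeated quantile normalization, a group mean of at least 6, a robust variance trend and 1 probe set per gene, and stayed 0 within each sex and for the interaction. For sex it moved from 0 to 5 with equal medians, and to 1 with repeated quantile normalization or the replicate block. With the replicate block PGRP-SB1 passed for sex (-0.83, limma adjusted p = 0.04335), pll did not (0.05822), and the genotype effect called 447 probe sets. Deviations of same-numbered arrays correlated at 0.184 to 0.413 among wild type females, wild type males and mutant females and at -0.304 to -0.178 with mutant males. Not every pair was over 0.1 and the labels name no shared batch, so the numbers were not taken as a pairing. The genotype effect called 524 probe sets, 307 of them at least 2-fold apart, and 247 to 488 with 1 array left out. In females 177 became 278 with a robust variance trend and 44 to 173 with 1 array left out, and in males 197 became 105 to 272. The interaction called 5 with a variance trend, 9 with a robust one and 0 to 20 with 1 array left out. The sex effect called 1894, and 12522 with equal medians, 3476 after repeated quantile normalization, 1150 with a group mean of at least 6, 1251 at least 2-fold apart and 1418 to 1843 with 1 array left out.

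Signs changed only for differences that were not called. PGRP-LE in females became 0.04 after repeated quantile normalization and PGRP-SB1 in males 0.02 with equal medians. With 1 array left out the ranges that crossed 0 were -0.25 to 0.49 (PGRP-SB1, genotype), -0.27 to 0.75 and -0.74 to 0.74 (PGRP-SB1 in females and males), -0.25 to 0.11 (PGRP-LE in females), -0.14 to 0.24 (PGRP-LF in males), -0.03 to 0.64 (AttD) and -0.21 to 0.44 (PGRP-SB2). For the interaction they were -0.50 to 0.98 (PGRP-SB1), -0.64 to 0.21 (PGRP-SC2) and -0.36 to 0.46 (PGRP-LB). The cause of these changes was not tested. The mean of all probe sets per gene could not differ, as each member had 1. The filter at a group mean of 6 removed PGRP-LF. It kept PGRP-LB through its mutant groups alone (means of 6.28 in females and 6.03 in males, against 5.47 and 5.26 in wild type).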
